A study of Mus musculus with 4 samples.

Results

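Core components of the spliceosome were examined in RNA-seq of mouse skeletal muscle at 28 and 18 months of age. Members were single genes whose mouse symbol starts with Sf3a, Sf3b, Snrp, Snrnp, Prpf, U2af or Lsm, pseudogene symbols left out, and 57 of 40137 gene units met that rule. Of these, 55 encode proteins of spliceosomal particles or proteins with the LSM fold. The other two were Lsmem1, whose symbol refers to a leucine-rich single-pass membrane protein, and Snrpert, which the annotation gives as a processed pseudogene resembling Snrpe. U2af1l4 was counted only in a unit joined with Igflr1, and Snrpn is not analysed here.

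All 4 libraries were total RNA from thigh muscle of wild-type, untreated males of the inbred C57BL/6J strain. The groups were 28 months (3 libraries) and 18 months (1 library), and the study set them beside exon arrays hybridized with RNA of the same samples. Nothing in the labels says whether the 28-month libraries came from separate animals, so p-values measure the spread between these samples only. Every test took the spread at 18 months to equal that of the 28-month libraries.

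The spliceosome removes introns in a series of steps carried out by small nuclear ribonucleoproteins, each a short nuclear RNA with its own proteins. U1 binds the start of the intron, U2AF and U2 its 3′ end and branch point, and the U4/U6.U5 tri-snRNP then joins and is rearranged into the catalytic machine. U1, U2, U4 and U5 RNAs carry a ring of Sm proteins, U6 RNA carries the LSM2 to LSM8 ring, and a related LSM1 to LSM7 ring acts in the cytoplasm when capped mRNA is degraded. A separate minor spliceosome handles a rare class of introns. Muscle depends on splicing for the isoforms of its long sarcomere proteins, and transcripts of spliceosome genes are themselves spliced with introns or extra exons that stop translation early.

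The deposited values were raw counts for exonic bins, the pieces of exon between annotated boundaries. The bin totals were 76163175, 75992582 and 67279205 counts for the 28-month libraries, numbered 1 to 3 in the labels, against 65780464 for the 18-month one. Members held 167168, 193459 and 148052 of these at 28 months, against 120672 at 18 months. Replicate 2 stood apart from its group: over the 57 members, log2 levels of 28-month replicates 1 and 3 correlated at r = 0.994, while replicate 2 correlated with them at 0.968 and 0.975 and with the 18-month library at 0.976, a description across genes that share a library. For the members, the counts of calls below are given with and without replicate 2. For other genes of the pathway they are given with all libraries only. The protocol text in the labels describes skin cells, whereas the tissue label is muscle. Summed CPM (counts scaled to library size, with TMM factors) of 12 skeletal muscle genes was 215874, 111085 and 224043 at 28 months, against 135310 at 18 months. Replicate 2 alone was below the 18-month library. The sum of 12 keratinocyte genes was 13.7 to 22.1 CPM at 28 months, against 19.7 CPM at 18 months, and Krt5, Krt15, Dsg3 and Ivl were at 0 in every library. Macrophage genes summed to 150 to 285 CPM at 28 months, against 102 CPM at 18 months, with 10 of 12 genes higher in every 28-month library, and Schwann cell genes to 105 to 198 CPM at 28 months, against 352 CPM at 18 months, with 9 of 10 lower in every 28-month library. Fibroblast genes ranged over 1171 to 3618 CPM at 28 months, highest in replicate 2, and stood at 1904 CPM at 18 months. Adipocyte genes summed to 3999 to 4820 CPM at 28 months, against 3385 CPM at 18 months, with 4 of 6 genes higher in every 28-month library. Over all gene units tested, 25.4% were higher and 26.4% lower in every 28-month library. Red blood cell genes were at 378, 145 and 3798 CPM at 28 months, against 183 CPM at 18 months, high in replicate 3 alone. Slow fibre genes (580 to 931 CPM at 28 months, against 773 CPM at 18 months) and endothelial genes (211 to 409 CPM at 28 months, against 273 CPM at 18 months) lay on both sides of the 18-month sum, and lymphocyte genes were at 8.70 to 18.4 CPM at 28 months, against 20.1 CPM at 18 months. Their part in the results below was not tested. In whole muscle, fewer cells of a type and less RNA per cell cannot be told apart.

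Levels of different genes can be compared only per length, which was known for the 30 members whose bins could be placed on the annotation. Per kilobase of exonic length, Prpf19, the ubiquitin ligase that anchors the complex needed for catalytic activation, had 54.3 CPM at 28 months, against 32.0 CPM at 18 months. Snrpb, the gene of the Sm proteins B and B′, followed with 42.2 CPM per kilobase at 28 months, against 24.7 at 18 months, and Snrnp27, a protein of the tri-snRNP, with 39.9 at 28 months, against 26.9 at 18 months. At the low end, Lsm11, part of the U7 particle that processes histone mRNA, had 0.320 CPM per kilobase at 28 months, against 0.397 at 18 months. Counts per kilobase differed widely within a particle. Gene sums count some fragments in several bins, and bin numbers differ: Sf3b1 has 43 bins and Sf3b5 has 1. The part of this in the differences was not tested. In the SF3b complex of U2, which grips the branch point, the scaffold Sf3b1 had 14.5 CPM per kilobase at 28 months, against 11.3 at 18 months, while Sf3b5, its smallest subunit, had 0.794 at 28 months, against 0.796 at 18 months. Among the Sm genes, Snrpe had 14.1 CPM per kilobase at 28 months, against 15.6 at 18 months, and Snrpf had 1.36 at 28 months, against 1.19 at 18 months. Snrpf had 110, 72 and 68 counts at 28 months, against 67 at 18 months. Its pseudogene Gm13092, 98.8% identical, had 112, 84 and 76 counts at 28 months, against 91 at 18 months, so the level of Snrpf is uncertain. Within the tri-snRNP the order ran from Snrnp27 through Prpf8, the large protein at the catalytic centre, with 23.6 CPM per kilobase at 28 months, against 20.1 at 18 months, down to Prpf4, of the U4/U6 particle, with 4.21 at 28 months, against 4.42 at 18 months.

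Several of the lowest members have near-identical processed copies elsewhere in the genome. A processed pseudogene matched 17 of the 57 members at 95% identity or more over at least 100 bases, and 7 of these 17 averaged under 5 CPM at 28 months, against 3 of the other 40. Among those 3 is Snrpert, itself a processed pseudogene resembling Snrpe, for which no match was sought. Lsm7 is the extreme case. It had 9, 22 and 15 counts at 28 months, against 12 at 18 months, whereas the pseudogene Gm10146, identical to it over 309 bases, had 213, 181 and 152 counts at 28 months, against 163 at 18 months. Snrpg had 161, 153 and 84 counts at 28 months, against 144 at 18 months, and its identical copy Gm8186 had 411, 519 and 357 counts at 28 months, against 457 at 18 months. U2af1, which reads the AG at the end of the intron, had 212, 258 and 189 counts at 28 months, against 103 at 18 months, and Gm10232, 96.7% identical, had 899, 667 and 849 counts at 28 months, against 859 at 18 months. In each of these pairs the copy had more counts than the gene in all 4 libraries. How the counting divided reads between a gene and its copies is not given, so levels and differences of these 17 members and of Snrpert are uncertain.

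**Figure D1:**
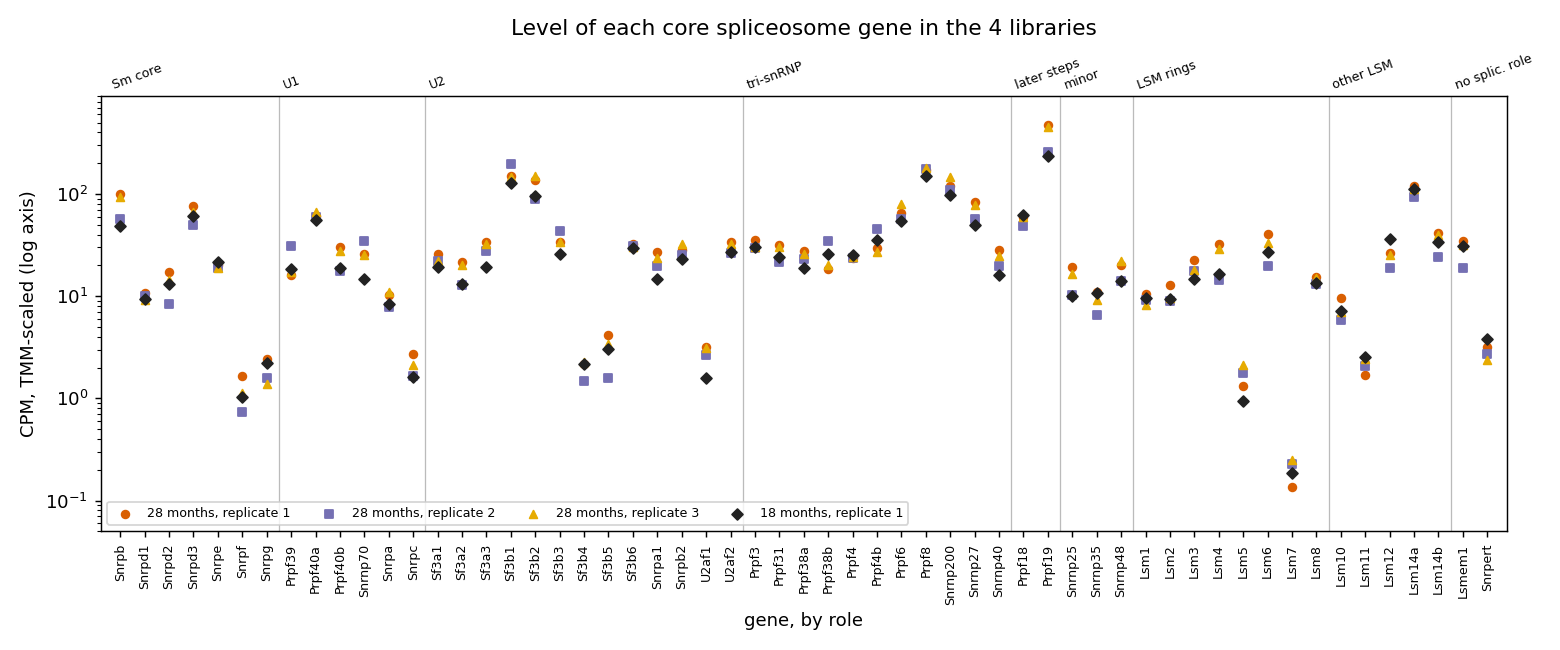
Level of each of the 57 genes in CPM on a log axis, with 1 point per library and genes grouped by role. The library at 18 months (black diamonds) lies below all 28-month points for 23 genes and above all of them for 6, and Lsm7 is the lowest gene.

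No member passed the test for a difference in level between the ages. With the edgeR quasi-likelihood test and Benjamini-Hochberg adjustment, adjusted p ran from 0.859 to 0.999 over the 57 members, and 0% of the 15376 gene units tested passed 0.05. At an unadjusted p under 0.05, Snrnp70 alone was higher at 28 months and no member was lower, while 2.54% of all units were higher and 2.36% lower at that threshold. The DESeq2 Wald test called no member either, and 31 of all units. The estimates lay mostly above 0: 42 of 57 members had a positive log2 difference, compared with 54.4% of all units. The median was 0.20 over members and 0.06 over all units. All 3 28-month values exceeded the 18-month value in 23 members (40.4%, with 25.4% of all units doing so) and all were below it in 6 (10.5%, with 26.4% of all units). The other 28 members had an 18-month value inside the 28-month range. The rule for members goes by symbol alone, but it was made with earlier results of these data known, and no test was made of the difference between members and all units.

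Replicate 2 was the lowest of the 28-month libraries in 39 of the 57 members and the highest in 6. Over all units tested, replicate 2 was the highest of them in 6544 of 15376, and the units in which it was the lowest were not counted. Without it, 11 members passed at an adjusted p under 0.05 (edgeR quasi-likelihood, Benjamini-Hochberg), all higher at 28 months, where 7.39% of all units were called higher and 4.35% lower. These were Prpf19, Snrpb, Lsm4, Sf3a3, Snrnp27, Snrnp70, Snrpa1, Snrnp25, Snrnp40, Sf3a2 and Sf3b2, with log2 differences of 0.61 to 1.02. That fit took its spread from 28-month replicates 1 and 3 alone. The median log2 difference of the members without replicate 2 was 0.31, and that of all units 0.03.

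**Figure D2:**
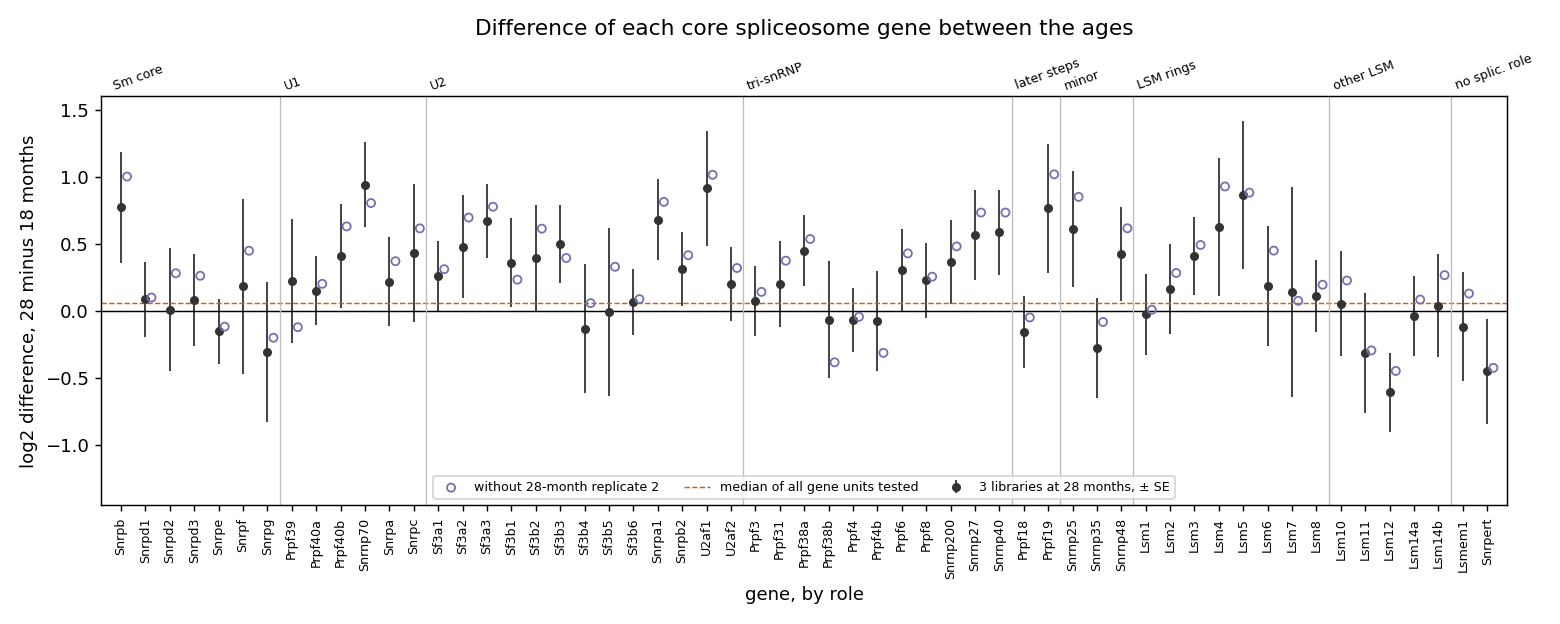
Log2 difference, 28 minus 18 months, of each of the 57 genes with its SE (filled), and the same without 28-month replicate 2 (open). Filled points of 42 genes lie above 0, and the dashed line marks the median of all units tested, 0.06.

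The U1 proteins had the member nearest to the threshold. Snrnp70, the U1-70K protein that binds a stem of U1 RNA, had 25.8, 34.5 and 25.2 CPM at 28 months, against 14.8 CPM at 18 months. Every 28-month library was above the 18-month library, the difference was 0.94 ± 0.32 (log2, SE), and unadjusted p was 0.0307 with an adjusted p of 0.859 in edgeR. Snrpa, the A protein of U1, had 10.2, 7.85 and 11.0 CPM at 28 months, against 8.32 CPM at 18 months, with overlapping groups and a difference of 0.22 ± 0.33. Prpf39, a U1-associated factor, had 16.2, 31.2 and 17.2 CPM at 28 months, against 18.5 CPM at 18 months. Its high value was replicate 2, and without that library its difference turned to -0.12, against 0.22 with all libraries. All 6 U1 members had positive estimates, as had 54.4% of all units, and their median was 0.32. In 3 of the 6 every 28-month value was above the 18-month value, as in 25.4% of all units, and in none was every one below it.

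Estimates of the U2 members were also mostly positive, 11 of 13, with a median of 0.36, and 8 of them were above the 18-month value in every 28-month library and none below it in every one, with 25.4% and 26.4% of all units so placed. Sf3a3, a subunit of the SF3a complex that ties U2 to the pre-mRNA, had 33.7, 27.4 and 32.1 CPM at 28 months, against 19.5 CPM at 18 months. The groups were apart, with a difference of 0.67 ± 0.28. Snrpa1, the A′ protein of U2, had 27.0, 19.8 and 23.8 CPM at 28 months, against 14.6 CPM at 18 months, a difference of 0.68 ± 0.30. U2af1, the small U2AF subunit, had 3.17, 2.65 and 3.13 CPM at 28 months, against 1.58 CPM at 18 months, a difference of 0.91 ± 0.43 on a low level. Its partner U2af2, which binds the pyrimidine tract, had 33.7, 26.5 and 32.3 CPM at 28 months, against 26.8 CPM at 18 months, and replicate 2 fell just under the 18-month value. Sf3a1, the largest SF3a subunit, had 25.7, 22.3 and 21.9 CPM at 28 months, against 19.5 CPM at 18 months (0.26 ± 0.26). Sf3b1, the branch-point scaffold, had 150.3, 196.6 and 146.6 CPM at 28 months, against 128 CPM at 18 months (0.36 ± 0.33), with its highest value in replicate 2, and a difference of 0.23 without that library.

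Members of the Sm core showed little in common. Snrpb had 99.7, 57.5 and 92.8 CPM at 28 months, against 48.8 CPM at 18 months (0.77 ± 0.41). Replicates 1 and 3 were about alike and replicate 2 lay closer to 18 months, and without it the difference was 1.00. Snrpd1 had 10.6, 10.1 and 9.26 CPM at 28 months, against 9.41 CPM at 18 months (0.09 ± 0.28). Snrpe had 20.2, 18.9 and 18.8 CPM at 28 months, against 21.5 CPM at 18 months (-0.15 ± 0.24), so all 28-month values were slightly below. Snrpg had 2.41, 1.57 and 1.39 CPM at 28 months, against 2.21 CPM at 18 months (-0.30 ± 0.52), and Snrpf 1.65, 0.738 and 1.13 CPM at 28 months, against 1.03 CPM at 18 months (0.18 ± 0.66). The median over the 7 Sm members was 0.08. Only Snrpb was above the 18-month library in every 28-month library and only Snrpe below it, where 25.4% and 26.4% of all units were so placed. Snrpert, the pseudogene with 98.9% identity to Snrpe, had 3.19, 2.75 and 2.39 CPM at 28 months, against 3.79 CPM at 18 months (-0.45 ± 0.39).

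In the tri-snRNP, the 11 members had a median of 0.23, and 6 of them were above the 18-month value in every 28-month library, as were 25.4% of all units. The 1 member below it in every one was Prpf4. Snrnp40, a U5 protein with WD repeats, had 28.6, 19.8 and 24.7 CPM at 28 months, against 16.2 CPM at 18 months (0.59 ± 0.32). Snrnp27 had 83.9, 57.4 and 78.4 CPM at 28 months, against 49.5 CPM at 18 months (0.56 ± 0.34). Both had groups that did not overlap. The big U5 proteins had smaller estimates: Prpf8 had 173, 175 and 179.6 CPM at 28 months, against 150.1 CPM at 18 months (0.23 ± 0.28), and the helicase Snrnp200 had 120.0, 109 and 146 CPM at 28 months, against 96.9 CPM at 18 months (0.37 ± 0.32). Prpf6, which bridges U5 and U4/U6, had 64.6, 57.4 and 79.2 CPM at 28 months, against 54.3 CPM at 18 months (0.30 ± 0.31). Estimates of the U4/U6 proteins were smaller still. Prpf3 had 35.2, 29.7 and 30.3 CPM at 28 months, against 30.1 CPM at 18 months (0.08 ± 0.26), Prpf4 had 23.6, 23.7 and 24.3 CPM at 28 months, against 25.1 CPM at 18 months (-0.07 ± 0.24), and Prpf31 had 31.4, 21.6 and 29.96 CPM at 28 months, against 24.0 CPM at 18 months (0.20 ± 0.32).

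Prpf19 had 474, 257 and 456 CPM at 28 months, against 233 CPM at 18 months (0.76 ± 0.48). Replicates 1 and 3 were about alike and replicate 2 lay near the 18-month library, so the SE was wide with it. Without it the difference was 1.02, with an adjusted p of 0.0175 (edgeR quasi-likelihood, Benjamini-Hochberg). Among the 3 minor spliceosome members, all of the U11/U12 particle, Snrnp25 had 19.2, 10.3 and 16.4 CPM at 28 months, against 10.01 CPM at 18 months (0.61 ± 0.43). Snrnp48 had 20.2, 14.1 and 21.9 CPM at 28 months, against 13.9 CPM at 18 months (0.43 ± 0.35), its replicate 2 just above the 18-month value. Snrnp35 had 11.0, 6.61 and 9.19 CPM at 28 months, against 10.8 CPM at 18 months (-0.28 ± 0.37), with overlap.

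The 8 members of the LSM rings had a median of 0.18, and 2 of them, Lsm3 and Lsm5, were above the 18-month value in every 28-month library, as were 25.4% of all units. Lsm3, shared by both rings, had 22.7, 17.8 and 17.9 CPM at 28 months, against 14.6 CPM at 18 months (0.41 ± 0.29). Lsm5, also shared, had 1.33, 1.75 and 2.12 CPM at 28 months, against 0.952 CPM at 18 months (0.86 ± 0.55), on a low level and with pseudogenes. Lsm4, a further shared subunit, had 32.1, 14.4 and 29.1 CPM at 28 months, against 16.3 CPM at 18 months (0.63 ± 0.51), with replicate 2 below the 18-month library and a difference of 0.93 without it. Lsm8, the subunit that marks the U6 ring, had 15.3, 13.2 and 15.0 CPM at 28 months, against 13.4 CPM at 18 months (0.11 ± 0.27). Lsm1, which takes its place in the cytoplasmic decay ring, had 10.6, 9.15 and 8.27 CPM at 28 months, against 9.50 CPM at 18 months (-0.03 ± 0.30). Lsm2, shared by both rings, had 12.8, 9.03 and 9.59 CPM at 28 months, against 9.34 CPM at 18 months (0.17 ± 0.34), and Lsm6, also shared, 40.3, 19.8 and 33.1 CPM at 28 months, against 27.3 CPM at 18 months (0.19 ± 0.45). In Lsm8, Lsm1, Lsm2 and Lsm6 the ages overlapped. LSM proteins outside the rings held the lowest estimate of any member. Lsm12, a protein with an LSM domain but no known place in a spliceosomal ring, had 26.7, 19.0 and 25.4 CPM at 28 months, against 36.1 CPM at 18 months, a difference of -0.61 ± 0.30 with every 28-month value below the 18-month value. Lsm11 had 1.68, 2.08 and 2.43 CPM at 28 months, against 2.56 CPM at 18 months (-0.31 ± 0.45). Lsm14a, which acts with mRNA decapping factors in cytoplasmic granules, had 121, 92.8 and 113 CPM at 28 months, against 112 CPM at 18 months (-0.04 ± 0.30). The remaining prefix match, Lsmem1, had 34.9, 18.9 and 31.5 CPM at 28 months, against 30.8 CPM at 18 months (-0.12 ± 0.41).

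Of 59 listed spliceosome genes with other names, 54 were tested, none passed the adjusted threshold, and the median log2 difference was 0.27. Without replicate 2 the median was 0.35 over these 54 genes and 0.31 over the members, so a larger median without it was not particular to the members. All 3 28-month values were above the 18-month value in 20 of the 54 and below it in 13, where 25.4% and 26.4% of all units were so placed. At an unadjusted p under 0.05 in edgeR, 3 of the 54 were higher and 1 was lower, where 2.54% of all units were higher and 2.36% lower. Xab2, a helical-repeat protein of the activated spliceosome, had 23.5, 18.8 and 24.9 CPM at 28 months, against 10.5 CPM at 18 months (1.10 ± 0.31, adjusted p = 0.859 in edgeR). Sart3, which recycles U6 into new tri-snRNPs, had 9.76, 8.99 and 9.76 CPM at 28 months, against 5.22 CPM at 18 months. Mfap1a, a protein of the pre-catalytic spliceosome, had 7.13, 8.17 and 8.51 CPM at 28 months, against 16.6 CPM at 18 months, and its close paralog Mfap1b, with which it may share reads, had 8.40, 7.45 and 11.3 CPM at 28 months, against 15.4 CPM at 18 months (-0.76 ± 0.33). Of 15 tested genes that assemble Sm rings and carry them to the nucleus, none passed at an unadjusted p under 0.05, and the median was 0.08. Smn1, the central assembly factor, had 20.1, 12.5 and 16.8 CPM at 28 months, against 10.1 CPM at 18 months (0.71 ± 0.37). None of 7 tested partners of the LSM1 ring passed either, with a median of -0.07. The decapping enzyme Dcp2 had 10.1, 13.7 and 8.46 CPM at 28 months, against 15.0 CPM at 18 months.

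Use of single bins within a gene was tested apart from its level, with edgeR diffSpliceDGE, Simes p-values per gene and Benjamini-Hochberg adjustment. Snrpb2 was the only one of 54 tested members that passed, with an adjusted p of 1.27e-06, where 3.54% of 11000 genes passed. Among 730 tested member bins, 3 passed the bin test, and 0.366% of all tested bins did. These 3 were the first pair of Snrpb2 bins and one bin of Prpf19. Of the pathway genes, Mfap1a (1 of 53 tested spliceosome genes) and Snupn (1 of 15 tested assembly genes) passed, and none of 7 decapping partners did.

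Snrpb2 encodes the B″ protein of U2, which sits with the A′ protein on a stem of U2 RNA. Its gene lies on the plus strand at chr2:143063039-143072853 (GRCm38, GENCODE M21), and its first exon, 60 noncoding bases at chr2:143063039-143063098, is covered by bins 1 and 2. The stretch around its start is given because counts on that exon separated the ages. It comes from RefSeq (GRCm38.p6), runs along the plus strand at chr2:143062819-143063068, and its 30 capitals are the first bases of the exon in GENCODE M21, with the RefSeq start right after them.
Snrpb2 start: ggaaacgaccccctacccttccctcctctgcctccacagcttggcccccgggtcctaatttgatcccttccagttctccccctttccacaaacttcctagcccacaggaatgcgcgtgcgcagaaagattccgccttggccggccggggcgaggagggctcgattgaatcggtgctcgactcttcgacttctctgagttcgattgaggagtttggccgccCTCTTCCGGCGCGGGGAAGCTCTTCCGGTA

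Counts on that first exon were 96, 161 and 105 at 28 months, against 0 at 18 months. As a share of all Snrpb2 counts this was 5.69% ± 0.751 (SD, n = 3) at 28 months, against 0 of 1494 counts at 18 months, which allows a share of up to 0.201% by a limit of 3 counts, so the mean share was at least 28.3-fold higher at 28 months against that limit (the exact 95% upper limit is 0.247%). Every 28-month library had the exon. In the bin test of edgeR, bin 2 had 80, 131 and 77 counts at 28 months, against 0 at 18 months (adjusted p = 1.32e-06), and bin 1 had 16, 30 and 28 counts at 28 months, against 0 at 18 months (adjusted p = 0.0478). The call of bin 1 was lost without replicate 1 (adjusted p = 0.0676) and without replicate 3 (adjusted p = 0.242), while bin 2 passed with any 28-month library left out (edgeR, adjusted p of 6.42e-05 to 0.000392). Snrpb2 itself had 28.1, 25.2 and 32.1 CPM at 28 months, against 22.9 CPM at 18 months, so that the gene as a whole was read in every library. Other bins of the gene leaned the same way along its length. The bin with the start codon, bin 5, held 9.73% ± 1.50 of the counts at 28 months, against 3.21% at 18 months (exact 95% interval 2.38 to 4.24). The last exon, of 1458 bases, held 19.5% ± 2.90 at 28 months, against 32.7% at 18 months (interval 30.4 to 35.2). A bin of 140 bases just upstream of bin 5, annotated only in a retained-intron transcript, had 0, 1 and 0 counts at 28 months, against 7 counts at 18 months. Intervals and limits here cover counting error only. One processed pseudogene matched Snrpb2, at 97.5% identity over 237 bases.

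**Figure D3:**
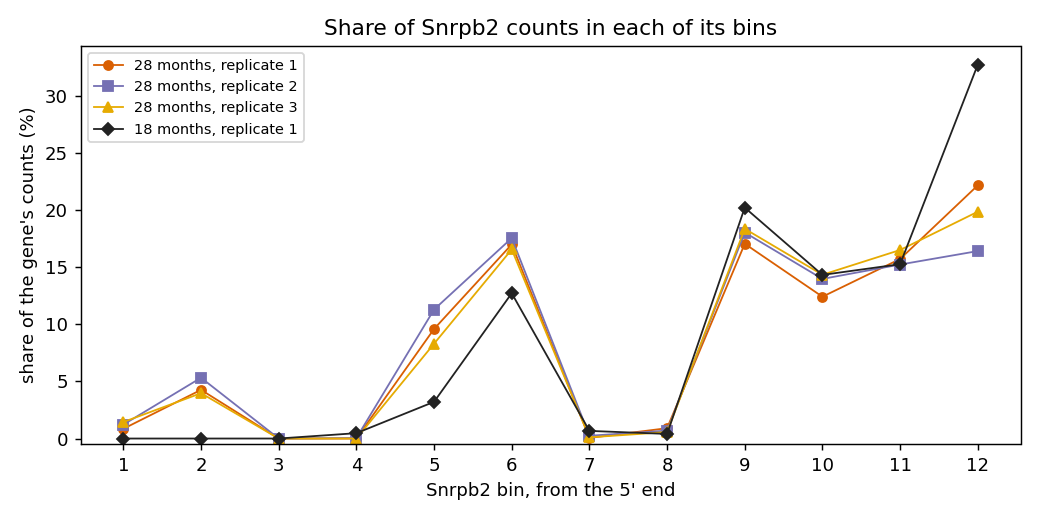
Share of all Snrpb2 counts in each of its 12 bins, from the 5′ end, with 1 line per library. The 3 28-month lines lie above the 18-month line at bins 1, 2, 5, 6 and 8 and below it at bins 4, 7, 9 and 12, where the 18-month library reaches 32.7%.

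The Prpf19 bin is an entire intron of 202 bases at chr19:10902500-10902701 on the plus strand (GRCm38), annotated as exonic only in a retained-intron transcript. Its sequence is given because spliced and unspliced transcripts differ by exactly these bases. Capitals mark the GT and AG at its ends.
Prpf19 intron: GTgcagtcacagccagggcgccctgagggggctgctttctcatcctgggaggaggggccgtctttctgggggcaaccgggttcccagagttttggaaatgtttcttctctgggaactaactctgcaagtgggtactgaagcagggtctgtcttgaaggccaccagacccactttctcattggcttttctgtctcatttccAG

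This intron had 3, 22 and 3 counts at 28 months, against 52 counts at 18 months. Its share of Prpf19 counts was 0.0361% ± 0.0448 (SD, n = 3) at 28 months, against 0.343% at 18 months (exact 95% interval 0.256 to 0.449). All 28-month shares were below the 18-month share, with replicate 2 the highest of them, and the 28-month mean was 0.0102% without it. Adjusted p was 0.0284 for the bin and 0.0561 for the gene (edgeR diffSpliceDGE, Simes), so Prpf19 did not pass as a gene. The call of the bin was lost without replicate 1 (adjusted p = 0.555) and without replicate 3 (adjusted p = 0.778), and without replicate 2 its adjusted p was 2.9e-13 (edgeR).

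No other member passed. The first exon of Lsm6, a noncoding stretch of 93 bases at chr8:78821048-78821140 on the minus strand, had 55, 68 and 38 counts at 28 months, against 4 counts at 18 months, which is 2.49% ± 0.902 of the gene's counts at 28 months, against 0.225% at 18 months. Its gene-level adjusted p was 0.270 by the Simes test of edgeR. Lsm6 thus resembled Snrpb2 in having its first exon read mainly at 28 months. In U2af2, bin 4 had 139, 128 and 125 counts at 28 months, against 36 at 18 months, a share of 5.85% ± 0.788 of the tested counts at 28 months, against 2.06% at 18 months. Sf3b2, which contacts RNA upstream of the branch point, had 197, 193 and 212 counts in bin 14 at 28 months, against 51 at 18 months, a share of 2.22% ± 0.0982 at 28 months, against 0.815% at 18 months. Sf3b4, another SF3b subunit in that region, had 15, 11 and 13 counts in bin 7 at 28 months, against 2 at 18 months. Each of these 3 bins was shown for the smallest p in its gene, and gene-level adjusted p was 0.677 to 0.797 (edgeR, Simes). All 3 took a higher share in every 28-month library, as did 357 of 730 tested member bins (48.9%), while 183 (25.1%) took a lower one. The same shares over all tested bins were not counted, so these counts do not set the members apart. Bin 3 of Sf3b4 went the other way, with 5.43% of the tested counts at 28 months, against 14.8% at 18 months. The 4 bins of Sf3b4 that were tested rest on 136 to 145 counts per library over the whole gene. Its pseudogene Gm7935, 99.3% identical over 1278 bases, had 100, 132 and 89 counts at 28 months, against 100 at 18 months. Processed pseudogenes also matched U2af2 and Lsm6. Bin shares of Sf3b4, U2af2 and Lsm6 are therefore uncertain, as their levels are.

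Without 28-month replicate 2, 10 of 54 members (18.5%) passed the Simes test, where 29.99% of all genes did. These were Lsm14b, Lsm6, Prpf19, Prpf31, Sf3b1, Sf3b2, Sf3b3, Snrpb, Snrpb2 and U2af2. The members' share was thus below that of all genes. Snrpb2 passed with every alternative tried.

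Counts in introns were looked at across the placed members, in bins annotated only in retained-intron transcripts. In 16 members with such bins, 11 had a lower share of their counts there in every 28-month library, 1 had a higher share in every one, and 4 overlapped. Over all 3291 placed genes with such bins, 36.0% were lower in every 28-month library and 7.47% higher. The counts behind several of the 11 were few: Prpf8 had 0, 1 and 0 at 28 months, against 3 at 18 months, and Snrnp25 had 0 in all 3 28-month libraries and 2 at 18 months. Pooled over the 16 members, 253, 1105 and 219 counts lay in such bins at 28 months, against 471 at 18 months, or 0.230, 0.903 and 0.224% of all counts of the placed members at 28 months, against 0.636% at 18 months. Replicate 2 was thus above the 18-month library and replicates 1 and 3 below it. Of all counts of the 16 members alone, the pooled share was 0.285, 1.11 and 0.274% at 28 months, against 0.814% at 18 months, and with Sf3b1 left out it was 0.260, 0.425 and 0.205% at 28 months, against 0.806% at 18 months, so that replicate 2 lay above the 18-month library only with Sf3b1. Pooled in the same way over all 3291 genes, the share was 0.280, 0.605 and 0.300% at 28 months, against 0.605% at 18 months.

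Prpf31, a U4/U6 protein whose human gene is mutated in retinitis pigmentosa, had the highest such share. A piece of 516 bases in it, at chr7:3630906-3631421, had 102, 134 and 84 counts at 28 months, against 159 at 18 months. Its share was 5.29% ± 0.941 at 28 months, against 10.2% at 18 months (exact 95% interval 8.71 to 11.8), lower in every 28-month library. Snrpb had 9, 18 and 2 counts in such bins at 28 months, against 48 at 18 months, 0.135, 0.321 and 0.0357% at 28 months, against 1.51% at 18 months. Snrnp200 had 11, 21 and 9 counts at 28 months, against 37 at 18 months. Sf3b1 went the other way in 1 library, with 48, 763 and 73 counts at 28 months, against 72 at 18 months, or 0.478, 3.98 and 0.825% at 28 months, against 0.863% at 18 months. Of the 1105 pooled counts of replicate 2, 763 were on Sf3b1. Lsm2 was the member above 18 months in every 28-month library, with 7, 26 and 2 counts at 28 months, against 0 at 18 months.

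**Figure D4:**
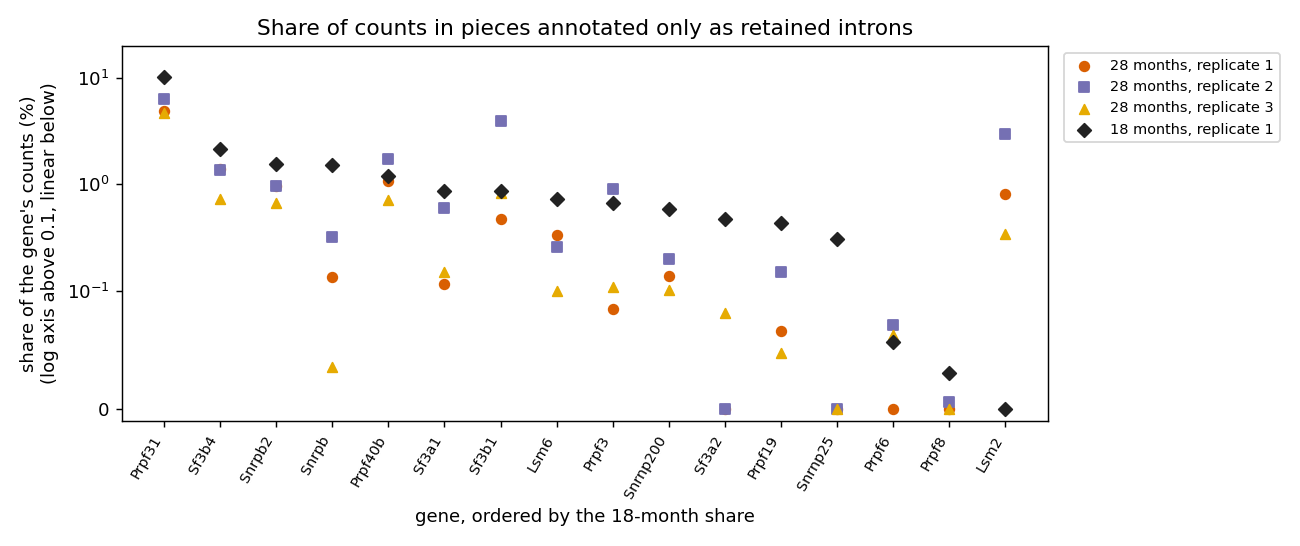
Share of each gene's counts in bins annotated only in retained-intron transcripts, for the 16 placed members with such bins, with 1 point per library. The 18-month point (black diamond) is above all 28-month points in 11 genes, and replicate 2 of Sf3b1 stands at 3.98%.

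Extra exons that end the reading frame early and send the transcript to nonsense-mediated decay were annotated in 4 placed members. The pair in Snrpb and Sf3b1 is shown, since replicate 2 stood apart on both. The Snrpb exon, 124 bases at chr2:130176629-130176752 on the minus strand, and the Sf3b1 exon, 56 bases at chr1:55014869-55014924 on the minus strand, are from GENCODE M21 transcripts on GRCm38, with the annotated stop codon in capitals.
Snrpb decay exon: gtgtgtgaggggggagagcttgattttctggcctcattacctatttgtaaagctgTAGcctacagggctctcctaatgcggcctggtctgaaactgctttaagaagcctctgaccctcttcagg
Sf3b1 decay exon: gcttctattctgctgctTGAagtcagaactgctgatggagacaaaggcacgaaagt

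The Snrpb exon had 15, 52 and 12 counts at 28 months, against 5 at 18 months, a share of 0.225, 0.928 and 0.214% at 28 months, against 0.157% at 18 months (exact 95% interval 0.0512 to 0.367). Every 28-month share was above the 18-month share, but replicates 1 and 3 lay inside its counting interval. The Sf3b1 exon had 6, 93 and 12 counts at 28 months, against 7 at 18 months, 0.0598, 0.485 and 0.136% at 28 months, against 0.0839% at 18 months, so that the ages overlapped. The decay exon of Prpf3 had 2, 5 and 6 counts at 28 months, against 4 at 18 months. Decay bins of Prpf31 had 11, 14 and 6 counts at 28 months, against 14 at 18 months, a share of 0.524, 0.665 and 0.332% at 28 months, against 0.895% at 18 months (exact 95% interval 0.490 to 1.50), so that, unlike in Snrpb, every 28-month share was below the 18-month share. Replicate 2 held the highest share of both the Snrpb and the Sf3b1 exon, and of the Sf3b1 introns above.

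Counts also sat differently along the genes. For the 52 members with at least 4 bins and a mean of at least 100 counts, the share of counts in the 5′ part of the gene, up to the middle of its bins, had a median of 31.8, 35.4 and 33.2% at 28 months, against 27.0% at 18 months. The share was higher in every 28-month library for 37 of these 52 (71.2%) and lower in every one for 6 (11.5%), where 74.6% and 6.00% of 10120 genes were so placed. With the 5′ part cut at the middle, the share of members that were higher was thus near that of all genes. At the ends, the first tested bin took a larger share in every 28-month library in 36 of 54 members (66.7%), with 63.3% of all tested genes doing so, and the last tested bin a smaller share in 49 of 54 (90.7%), with 85.7% of all tested genes. The first exons of Snrpb2 and Lsm6 lie at that end, and the part of this shift in their values was not tested.

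Lsm5 had the widest gap, and was picked after its values were seen. This subunit of both LSM rings had 62.9, 59.6 and 64.8% of its counts in the 5′ part at 28 months, against 24.2% at 18 months, on only 89, 171 and 128 counts at 28 months, against 62 at 18 months, and it has 2 matching pseudogenes. U2af2 had 58.9, 57.2 and 58.2% at 28 months, against 41.4% at 18 months. Snrpb2 had 31.7, 35.4 and 30.3% at 28 months, against 16.4% at 18 months, and Sf3b1 had 22.2, 26.8 and 22.0% at 28 months, against 12.3% at 18 months. Lsm5, U2af2, Snrpb2 and Sf3b1 had the widest gaps of all members in this direction. That the 18-month library was apart in them therefore follows from their choice. The widest gaps in the opposite direction were those of Prpf38a and Sf3b4. Prpf38a, a tri-snRNP protein of the pre-catalytic complex, had 51.1, 54.3 and 52.7% at 28 months, against 62.5% at 18 months. Sf3b4 had 4.86, 9.66 and 5.88% at 28 months, against 16.4% at 18 months. Processed pseudogenes match Sf3b4, U2af2 and Snrpb2 as well as Lsm5, so these shares are uncertain.

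**Figure D5:**
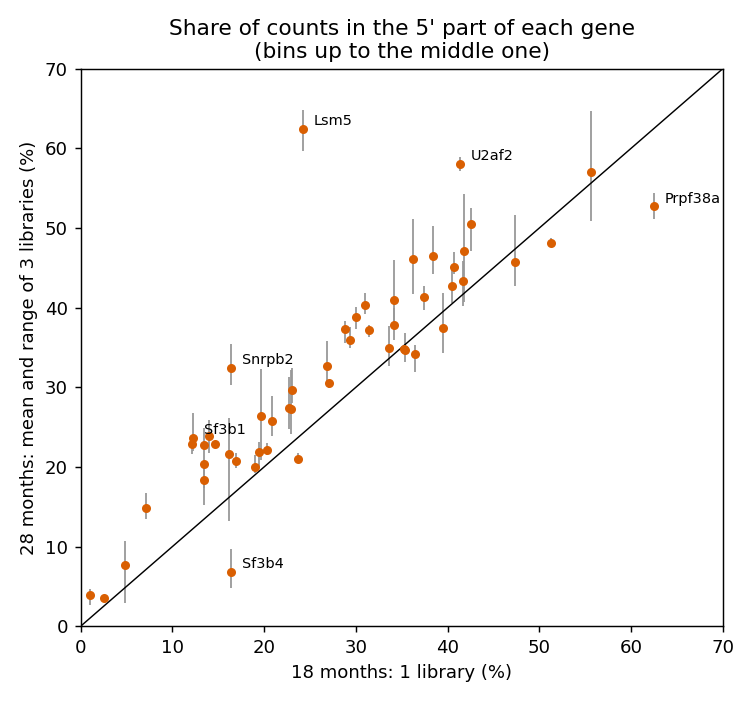
Share of counts in the 5′ part of the bins of 52 members, at 28 months (mean, with bars from the lowest to the highest of 3 libraries) against the 18-month library. Bars lie wholly above the line of equality for 37 members and wholly below it for 6, and Lsm5 lies farthest above.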

How the data were processed

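Each library had its own deposited table of raw counts for exonic bins, which the authors did not normalize. The submitters' processing notes name bcl2fastq 1.8.3, TopHat2 2.0.4 and GRCm38; the sources used here do not give the counter, annotation release or strand setting. The names of the bins and of 5 special entries, which name no gene, look like those of a script that counts a fragment in every bin it touches, so gene sums count some fragments more than once. The special entries (3.36 to 4.56% of all counts, theirs included, at 28 months, 5.20% at 18 months) were left out.

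Bins were added up per gene unit. The edgeR quasi-likelihood test, with TMM factors of 0.877, 1.28 and 0.897 at 28 months and 0.990 at 18 months, was run on units averaging 10 counts or more, with 2 residual degrees of freedom, all from 28-month libraries. All 57 members passed this filter. Bins averaging 10 counts or more, in single genes with several such bins, were tested with diffSpliceDGE, scaled by TMM over those bins. Benjamini-Hochberg adjustment ran over all units, genes or bins, with calls under 0.05. Scripts were tested on simulated data. A permutation of 3 libraries against 1 cannot go below an exact two-sided p of 0.5, so none was run.

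GENCODE M21 was flattened into exonic pieces, and bins were placed by number where a gene had as many bins as pieces (30 members), which does not prove the placement right. Pseudogenes came from BLAST of M21 transcripts. The members and lists were chosen with earlier results of these data known. By rule, the genes named were 6 in each direction by smallest expression p at 1 CPM or more, 6 by smallest exon usage p, those fixed by name, and the highest and lowest per length in each role. Others were added for counts of few genes, for calls without replicate 2, for pseudogenes and for gene structure, after their values were seen. Alternatives were other scaling, filters, DESeq2, limma voom, the gene F-test, end bins left out and each 28-month library left out.

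Versions were 4.3.3 for R, 4.0.16 for edgeR, 3.58.1 for limma, 1.42.0 for DESeq2, 3.11.15 for Python (numpy 2.4.6, pandas 2.3.3, scipy 1.17.1, matplotlib 3.10.9) and 2.17.0 for BLAST.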

Additional observations from a re-analysis of the deposited data

How the results depend on the processing

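No paired analysis was possible because the 18-month group has 1 library. Over all units, expression calls numbered 31 with the DESeq2 Wald test and 1 to 1806 with a 28-month library left out, against 0; for members they were 0 to 11 with a library left out, the 11 without replicate 2. Members above the 18-month value in every 28-month library numbered 24 to 42 of 57 with a library left out, against 23 of 57. Of all units, 29.2 to 40.7% were so placed, against 25.4%. With fewer 28-month libraries any gene meets that condition more easily. With library size taken without the 20 most abundant and mitochondrial genes, 29 members were above in every 28-month library and 8 below. Of all units, 25.4% were above and 24.5% below in that setting. Exon usage calls over all genes, 389 (3.54%), became 234 (2.55%) with bins of a mean of at least 30, 507 (4.02%) with at least 3, 3375 (30.7%) with the gene F-test, 1765 (16.0%) with limma voom, 206 (2.18%) without end bins and 164 to 3299 (1.49 to 29.99%) with a library left out. For members, 1 call (1.85%) became 5 (9.26%) with bins of a mean of at least 3, 16 (29.6%) with the F-test, 3 (5.56%) with voom, 2 (3.85%) without end bins (Prpf19 and Snrpb2) and 1 to 10 (1.85 to 18.5%) with a library left out. Member bins called, 3, became 1 with a mean of at least 30, 6 with at least 3, 13 with voom and 1 to 38 with a library left out. The cause was not tested.

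Of 252 recomputed log2 differences of named members, 232 kept direction and call, 8 gained a call without replicate 2, and 12 changed sign. Sf3b5 was 0.00404 with no count filter, against -0.00474. With a 28-month library left out, the values of the members that changed sign ran over -0.13 to 0.055 for Lsm1, -0.12 to 0.085 for Lsm14a, -0.090 to 0.27 for Lsm14b, -0.00392 to 0.28 for Lsm2, -0.045 to 0.45 for Lsm6, -0.00339 to 0.14 for Prpf3, -0.12 to 0.39 for Prpf39, -0.30 to 0.33 for Sf3b5 and -0.15 to 0.45 for Snrpf. Alternatives chosen after seeing the data gave 26 to 39 members with a higher share in the 5′ part, against 37. With shorter 5′ parts, 57.7% and 50% of members were higher in every 28-month library, where 65.9% and 59.8% of all genes were. With a library left out the pooled retained-intron difference was -0.41 to -0.07 percentage points, against -0.18. With Sf3b1 left out, the pooled difference over the 16 members with such bins was -0.51, against -0.26. The single library at 18 months limits every comparison.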
